A study of Mus musculus with 6 samples.

Results

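Many interferon-induced genes of the mouse lie in families of close copies, and an array probe set that matches several copies reports their transcripts together. In 3 mouse cell lines 57 such probe sets were more than 3-fold higher after IFN-β in at least 1 line, out of 1621 probe sets whose annotation names 2 or more genes and 35557 probe sets on the array. A probe set is the group of short probes that is summarised into 1 value per array. The members were selected on measured values: their log2 value with IFN-β had to exceed the unstimulated value of the same line by more than 1.585, which is 3-fold, in NIH3T3, L929 or RAW264.7. Their changes are therefore a description of how they were chosen, and no test is given for them.

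The samples were total RNA of NIH3T3 fibroblasts, L929 fibroblasts and the macrophage line RAW264.7, each either unstimulated or given IFN-β for 4 h. Each of the 6 groups had 1 array, so no value has a replicate error, and precision is limited by the single array per group. Levels are the authors' RMA values on the log2 scale, and a change is the stimulated minus the unstimulated level of the same line. A pair of levels of a line written as a to b gives the unstimulated and then the stimulated level. Where 3 values are given without a line, their order is NIH3T3, L929 and RAW264.7. The series asked which genes the cytokine regulates at the RNA level. The sources used here give no dose of IFN-β. The lines are long-established cultures, and each stands for 1 line and not for its cell type. In such bulk RNA, fewer responding cells and less RNA per cell cannot be told apart.

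IFN-β is a type I interferon. It binds a receptor on nearly all cells, and the response acts on genes through short promoter motifs, among them interferon-stimulated response elements (ISRE) and gamma-activated sites (GAS). Among the genes that respond are GTPases that attack the vacuoles of intracellular pathogens, DNA and RNA sensors, nuclear body proteins and antigen presentation genes. In the mouse many of these have multiplied into tandem clusters, so that a single-gene reading of an array leaves part of the response out.

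By the medians of marker lists, the labels of the lines matched their markers. The macrophage list (11 of 12 genes measured) had a median unstimulated level of 10.44 in RAW264.7, against 3.86 in NIH3T3 and 4.21 in L929. The fibroblast list (10 of 11) had 10.30 in NIH3T3 and 7.73 in L929, against 4.64 in RAW264.7. Its single genes ran from 4.07 to 11.60 in NIH3T3 and from 2.27 to 11.50 in L929. The match thus holds for the medians and not for every fibroblast marker. Lymphocyte (5 of 6) and epithelial (6 of 6) lists had medians of 4.36 to 4.88 on the unstimulated arrays. The array medians over all probe sets were 4.72 to 4.82 except on the stimulated NIH3T3 array, where the median was 5.05. The median change of all probe sets was 0.17 in NIH3T3 and -0.02 in both L929 and RAW264.7, and the part of the NIH3T3 shift in the changes below was not tested.

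The 57 probe sets carried 47 distinct sets of values, because 14 of them shared all 6 values with at least 1 other, as probe sets with the same probes do. They named 78 genes in 35 combinations, 30 of the 57 named exactly 2 genes, and the largest combination held 9. Of the 78 genes, 58 had no probe set that named them alone, and for 34 of the 57 probe sets this was true of every gene named. In the RefSeq gene order, 28 of the 35 combinations lay on 1 chromosome and 7 on 2, and 5 were pairs of genes with no gene between them. A gene that is not annotated as protein-coding was part of 13 combinations.

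The probe sets nested by line. All 57 passed 3-fold in L929, 30 passed in RAW264.7 and 24 in NIH3T3. The 24 passed in all 3 lines, a further 6 in L929 and RAW264.7, and 27 in L929 alone. Since the rule used these contrasts, the background is given beside the counts and nothing is read from the comparison. Among all probe sets 2.58% passed in at least 1 line, with 1.59% in L929, 1.11% in NIH3T3, 0.742% in RAW264.7 and 0.312% in all 3. Among probe sets naming several genes the shares were 3.52% in at least 1 line, 3.52% in L929, 1.48% in NIH3T3, 1.85% in RAW264.7 and 1.48% in all 3. Among the 21789 probe sets naming 1 gene they were 1.14% in at least 1 line, 0.936% in L929, 0.477% in NIH3T3, 0.638% in RAW264.7 and 0.307% in all 3, the last being 67 probe sets. No several-gene probe set was lower by over 3-fold in any line, a share of 0%. Lower probe sets were not counted over the whole array or among those naming 1 gene, so nothing is read from this share.

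The largest of the 3 changes was in L929 for 54 of the 57 and in RAW264.7 for 3, and in NIH3T3 for 0. The median change of the 57 was 3.12 in L929, 1.61 in RAW264.7 and 1.25 in NIH3T3. For the 24 that passed in all lines it was 5.70 in L929, 2.47 in RAW264.7 and 2.39 in NIH3T3, or 51.8-fold, 5.54-fold and 5.22-fold. The level before IFN-β was highest in RAW264.7 for 42 of the 57 and for 19 of the 24. The 42 included 13 probe sets of the Sp100 family and 15 of small RNA genes, some with identical values. All 57 passed in L929, so the rule itself favours L929 in the count of largest changes. These counts were not made over all probe sets, and nothing is read from them. In RAW264.7 the 24 had a median of 6.83 unstimulated and 9.47 stimulated. In L929 they went from 3.97 to 9.81, and in NIH3T3 from 4.16 to 6.94. Both of these unstimulated medians were under the array median of 4.77, so the folds in these 2 lines depend on low starting levels. Over these 24 the stimulated medians of L929 and RAW264.7 lay closer together than their unstimulated ones, and the stimulated NIH3T3 median was below both. Of the 24, 10 were Sp100 family probe sets, all with the highest unstimulated level in RAW264.7. Medians without the Sp100 family were not taken, so nothing is read from the smaller gap.

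**Figure D1:**
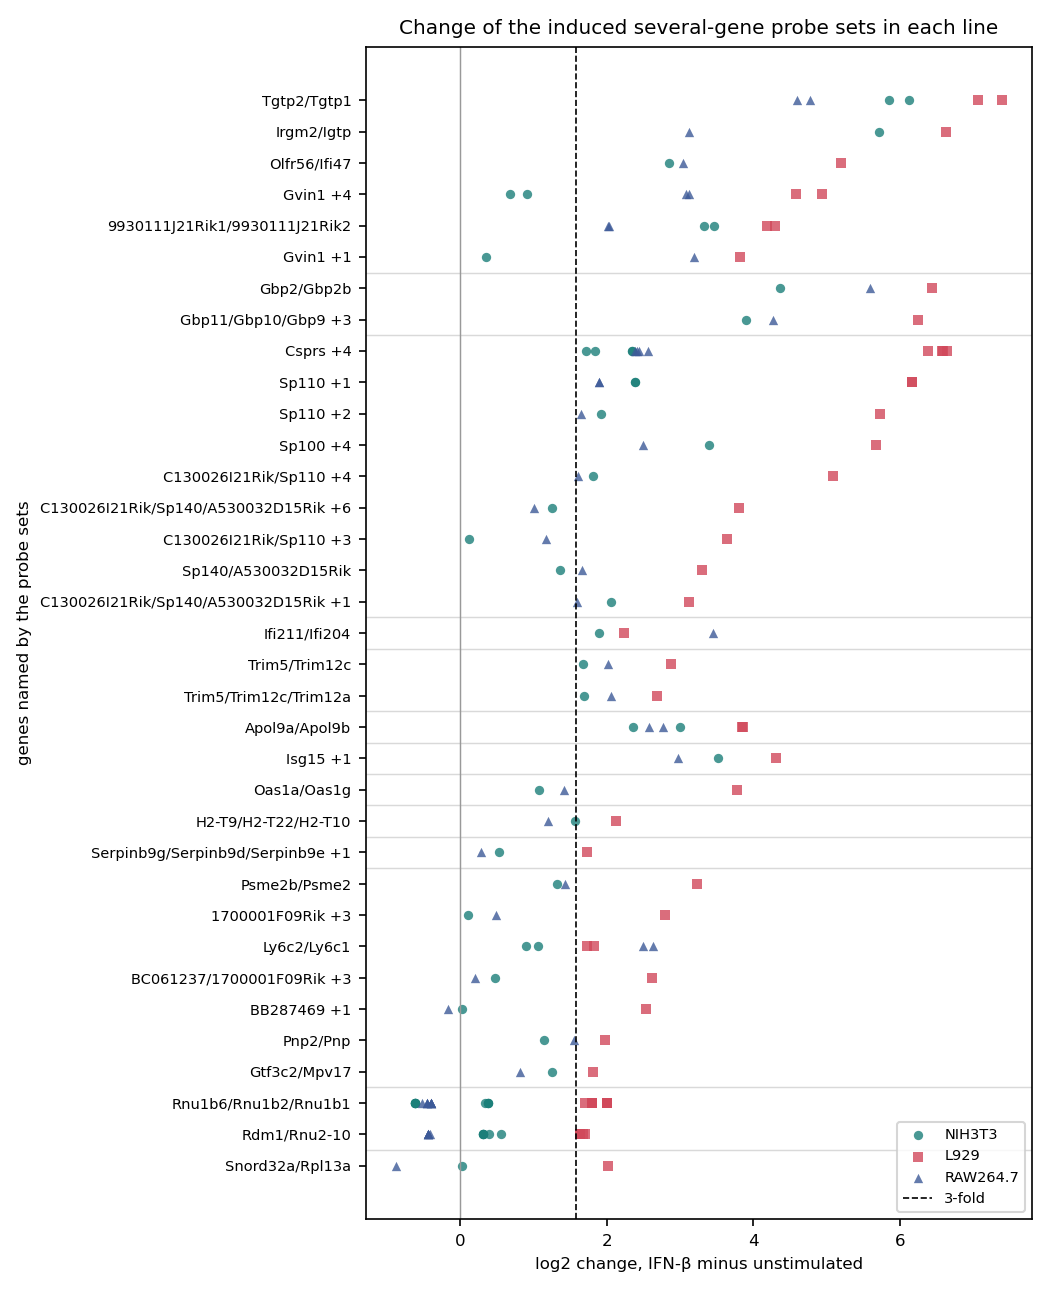
Log2 change after IFN-β (horizontal axis, stimulated minus unstimulated, 1 array each) for the 35 gene combinations of the 57 probe sets, with 1 symbol per probe set and line. The dashed line marks 3-fold, "+" counts further genes named, and grey lines separate families. L929 squares lie farthest right for 54 of the 57 probe sets, and the small RNA combinations at the bottom lie right of the dashed line in L929 only.

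The immunity-related GTPases (IRG) and the very large inducible GTPases made up 9 of the probe sets. IRG proteins bind to the vacuoles around intracellular bacteria and protozoa, where Tgtp1 and Tgtp2 are effectors that load onto the membrane and Igtp and Irgm2 regulate them. All 9 probe sets passed in L929 and RAW264.7 and 6 in NIH3T3, and L929 had the largest change for all 9. Tgtp2 and Tgtp1 shared 2 probe sets. In the first, the level was 4.15 to 10.27 in NIH3T3, 3.43 to 10.82 in L929 and 4.36 to 9.14 in RAW264.7. All 3 unstimulated arrays were low and all 3 stimulated ones were high. The changes of 6.12, 7.39 and 4.78 are 69.5-fold, 167-fold and 27.4-fold, and the L929 and NIH3T3 changes were the largest of any of the 57 in those lines. The other probe set of the same pair gave 4.73 to 10.58 in NIH3T3, 3.82 to 10.88 in L929 and 4.86 to 9.46 in RAW264.7, with changes of 5.85, 7.06 and 4.60.

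Irgm2 and Igtp, which are neighbours with no gene between them, shared a probe set with levels of 3.50 to 9.21 in NIH3T3, 3.20 to 9.82 in L929 and 5.76 to 8.88 in RAW264.7. The unstimulated RAW264.7 array stood above the other two unstimulated arrays and its stimulated array was the lowest of the 3, so its change of 3.12 (8.67-fold) was smaller than the 5.71 (52.2-fold) of NIH3T3 and the 6.63 (98.8-fold) of L929. The annotated starts of these 4 GTPase genes are shown with 250 bases before each, because the probe sets cannot separate the partners of a pair while their promoters can be read apart. Sequences are those of RefSeq on GRCm38.p6, on the gene's strand from 5′ to 3′ and ending at the base before the start. Capitals mark matches on either strand to the ISRE core, which is GAAA followed by any 2 bases and GAAA again, or to the GAS motif TTCNNNGAA.
Tgtp1 (chr11:48992247-48992496, minus strand): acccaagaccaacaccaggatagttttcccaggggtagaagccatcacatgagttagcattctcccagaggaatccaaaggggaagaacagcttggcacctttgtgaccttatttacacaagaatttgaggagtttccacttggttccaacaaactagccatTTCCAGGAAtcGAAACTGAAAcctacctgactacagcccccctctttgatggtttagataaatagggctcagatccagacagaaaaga
Tgtp2 (chr11:49064213-49064462, minus strand): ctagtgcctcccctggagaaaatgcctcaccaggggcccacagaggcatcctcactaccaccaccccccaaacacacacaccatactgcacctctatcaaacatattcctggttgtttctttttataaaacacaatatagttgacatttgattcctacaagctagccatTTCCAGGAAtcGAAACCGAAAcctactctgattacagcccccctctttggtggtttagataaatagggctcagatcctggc
Igtp (chr11:58199306-58199555, plus strand): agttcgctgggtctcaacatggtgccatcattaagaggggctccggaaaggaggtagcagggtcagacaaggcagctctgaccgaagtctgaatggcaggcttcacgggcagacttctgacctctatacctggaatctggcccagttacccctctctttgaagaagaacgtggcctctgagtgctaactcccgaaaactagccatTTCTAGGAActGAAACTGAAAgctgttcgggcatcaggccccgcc
Irgm2 (chr11:58214727-58214976, plus strand): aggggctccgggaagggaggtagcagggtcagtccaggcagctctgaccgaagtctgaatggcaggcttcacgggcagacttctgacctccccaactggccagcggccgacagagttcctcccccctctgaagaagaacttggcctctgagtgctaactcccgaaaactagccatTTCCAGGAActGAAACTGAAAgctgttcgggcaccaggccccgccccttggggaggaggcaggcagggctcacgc

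In all 4 windows a GAS match lay 2 bases before an ISRE match, without overlap. The ISRE match began 77 bases before the start in Tgtp1, 70 in Tgtp2, 34 in Igtp and 64 in Irgm2. A local alignment of the windows joined 99 positions of Tgtp1 and Tgtp2 with 92 identical (92.9%), and 221 positions of Igtp and Irgm2 with 197 identical (89.1%). The stretch shared by the Tgtp pair holds both motifs. A match to these letters is a description of the sequence and not evidence of binding.

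Ifi47, a further IRG gene, shared a probe set with the odorant receptor gene Olfr56, with 3 genes between them. Its levels were 3.46 to 6.30 in NIH3T3, 2.40 to 7.59 in L929 and 4.55 to 7.59 in RAW264.7. Both stimulated levels of L929 and RAW264.7 were the same to 2 decimals although the L929 array started lower, and the changes were 2.85, 5.19 and 3.03. The genes 9930111J21Rik1 and 9930111J21Rik2, listed here with the GTPases, shared 2 probe sets. One gave 3.52 to 6.98 in NIH3T3, 4.44 to 8.62 in L929 and 7.51 to 9.53 in RAW264.7, and the other 3.56 to 6.89, 4.37 to 8.66 and 7.44 to 9.48 in the same order. RAW264.7 had the highest level both before and after IFN-β and the smallest change, 2.02 and 2.03 against 4.19 and 4.30 in L929 and 3.46 and 3.33 in NIH3T3. The promoter stretches of these genes were identical over 233 aligned positions, but the annotated starts are offset by 17 bases within it, and the ISRE match of 9930111J21Rik1 begins 26 bases after its start. Tgtp1, Tgtp2, both 9930111J21Rik genes, Ifi47, Olfr56 and Psme2b stand in 1 run of 13 genes on chromosome 11, of which these are 7.

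Gvin1 and the related genes Gm4070, Gm1966, Gm8979 and Gm8989 encode or resemble very large GTPases of unclear function. They were named by 3 probe sets, which passed in L929 and RAW264.7 and not in NIH3T3. The probe set with the largest change had 2.15 to 3.07 in NIH3T3, 2.32 to 7.26 in L929 and 4.77 to 7.85 in RAW264.7. The 3 changes in L929 were 4.93, 4.58 and 3.81, those in RAW264.7 3.08, 3.12 and 3.20, and those in NIH3T3 0.92, 0.68 and 0.36. On the stimulated NIH3T3 array the 3 were at 2.73, 3.07 and 4.89, all below the array's median of 5.05. The probe set of Gm1966 alone gave changes of 1.68 in L929, 1.33 in RAW264.7 and 0.28 in NIH3T3. The 6 IRG and large GTPase probe sets that name 1 gene gave median changes of 6.22 in L929, 3.91 in NIH3T3 and 3.17 in RAW264.7. Of the 6, 5 passed in L929 and 4 in each of the others. Among these the largest were Iigp1 (5.46, 8.48 and 4.66), Gm4951 (3.60, 7.64 and 3.90) and Gm12250 (4.23, 6.23 and 4.39).

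The guanylate-binding proteins (GBP), GTPases that coat pathogens and their vacuoles and help to release their contents to cytosolic sensors, were named by 2 probe sets, both past 3-fold in all lines. Gbp2 and its neighbour Gbp2b had 6.05 to 10.41 in NIH3T3, 3.56 to 9.99 in L929 and 3.60 to 9.18 in RAW264.7. NIH3T3 was above the other lines before and after IFN-β, and its change of 4.37 (20.6-fold) was the smallest, beside 6.43 (86.4-fold) in L929 and 5.58 (47.9-fold) in RAW264.7. The latter was the largest change of any of the 57 probe sets in RAW264.7. Gbp2b also had a probe set of its own, with changes of 2.36, 6.06 and 5.13. Gbp11, Gbp10, Gbp9, Gbp6, Gbp8 and Gbp4 shared a probe set with 4.19 to 8.09 in NIH3T3, 3.54 to 9.79 in L929 and 3.96 to 8.23 in RAW264.7.

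The changes of this 6-gene probe set were 3.90, 6.25 and 4.27, or 14.9-fold, 75.9-fold and 19.3-fold. The 4 of its genes that also had a probe set of their own differed among themselves. Gbp11 gave 2.03, 3.83 and 1.24, Gbp9 1.16, 2.84 and 4.09, Gbp4 1.66, 4.45 and 3.07, and Gbp8 0.96, 1.20 and 0.95. Thus Gbp11 had its largest change in L929, Gbp9 in RAW264.7, and Gbp8 stayed under 3-fold in every line, differences that the shared probe set does not show. Of the 8 GBP probe sets naming 1 gene, 5, 7 and 6 passed, with medians of 1.84, 4.45 and 3.82, and the largest changes besides Gbp2b were Gbp3 (5.12, 6.89 and 5.02) and Gbp7 (4.62, 6.28 and 5.17). The upstream windows of the Gbp2 pair are shown since this neighbouring pair, unlike the GTPases above, had little upstream sequence in common.
Gbp2 (chr3:142620413-142620662, plus strand): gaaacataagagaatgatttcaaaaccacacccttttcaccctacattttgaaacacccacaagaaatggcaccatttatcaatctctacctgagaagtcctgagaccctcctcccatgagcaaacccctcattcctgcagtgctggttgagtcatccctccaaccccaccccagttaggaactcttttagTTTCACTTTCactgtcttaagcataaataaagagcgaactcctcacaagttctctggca
Gbp2b (chr3:142594597-142594846, plus strand): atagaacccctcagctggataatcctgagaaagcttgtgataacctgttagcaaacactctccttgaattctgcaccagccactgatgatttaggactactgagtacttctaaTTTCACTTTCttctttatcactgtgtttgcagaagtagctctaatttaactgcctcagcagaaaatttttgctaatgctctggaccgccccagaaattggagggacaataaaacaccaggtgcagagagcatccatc

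The local alignment of the Gbp2 and Gbp2b windows covered 17 positions with 15 identical. Each window had 1 ISRE match, on the minus strand, so the capitals show its reverse complement. It began 59 bases before the start in Gbp2 and 137 in Gbp2b. No GAS match was in either window.

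**Figure D2:**
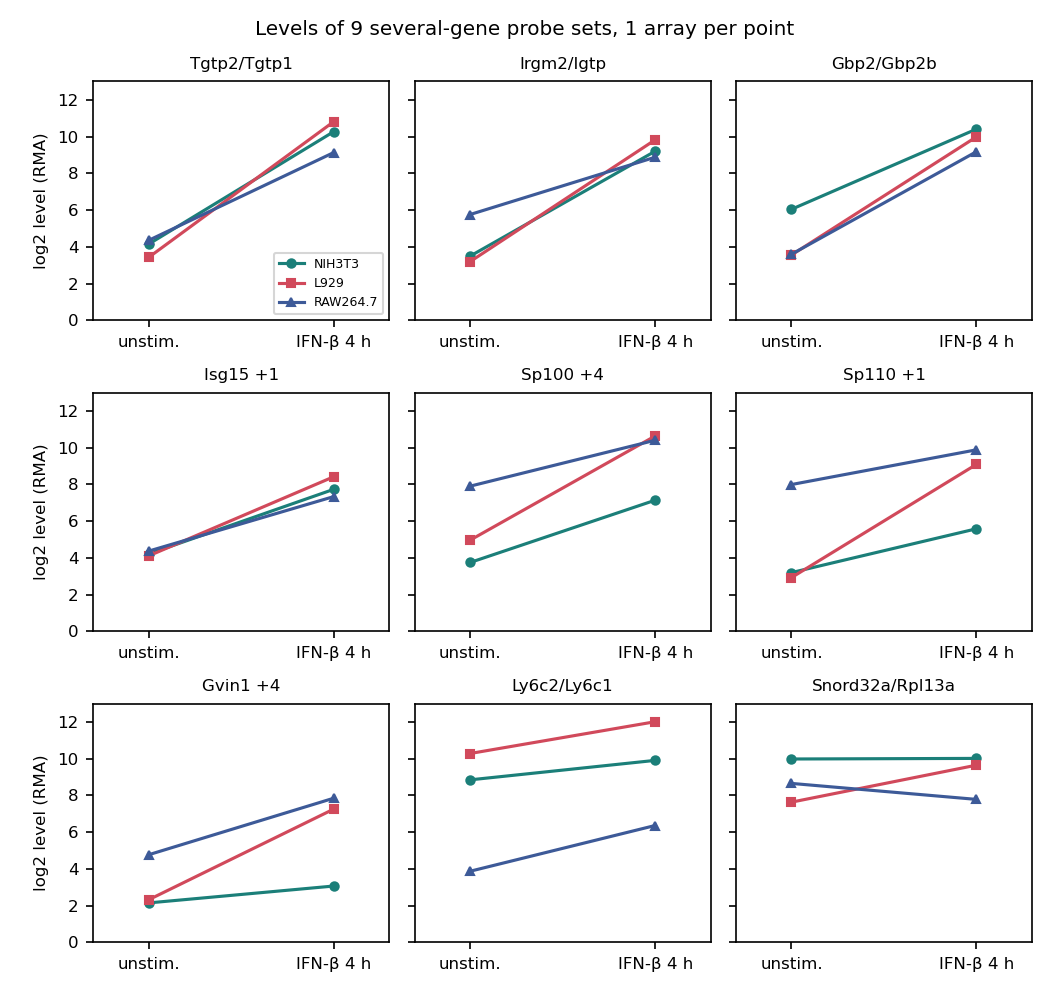
Log2 RMA level (vertical axis) of 9 probe sets, unstimulated and after 4 h of IFN-β, with 1 array per point and a line joining the arrays of a cell line. For Tgtp2/Tgtp1 and Isg15 all unstimulated points lie together and low. For Sp100 and Sp110 the unstimulated RAW264.7 point lies far above the fibroblast lines. For Gvin1 the NIH3T3 line rises by only 0.92, and for Snord32a/Rpl13a the L929 line goes up while NIH3T3 is flat and RAW264.7 goes down.

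Among protein-coding families the Sp100 family had the most members, with 13 probe sets and 12 distinct sets of values. Sp100 and Sp140 are chromatin-binding proteins of nuclear bodies, Sp110 is a nuclear body protein linked to resistance to intracellular bacteria, and Csprs and numbered genes such as Gm7592 and Gm7609 are copies in the same region. All 13 passed in L929, 11 in RAW264.7 and 10 in NIH3T3, and the 13 were all of the several-gene probe sets of this family on the array. With the arrays centred on their medians the NIH3T3 count was 7, and after quantile normalization 8, with the other lines at the same counts. Unstimulated levels lay between 3.20 and 5.91 in NIH3T3 (median 3.75), between 2.93 and 6.78 in L929 (median 4.24) and between 6.81 and 9.37 in RAW264.7 (median 7.99). RAW264.7 was the highest unstimulated line for 13 of 13, and its lowest value was above the highest L929 value. With IFN-β they lay between 4.85 and 7.43 in NIH3T3 (median 5.75), between 8.58 and 10.81 in L929 (median 9.90) and between 9.22 and 10.80 in RAW264.7 (median 9.88). L929 and RAW264.7 then overlapped almost completely, with L929 higher for 5 and RAW264.7 for 8, while every NIH3T3 value stayed below the unstimulated RAW264.7 value of the same probe set (13 of 13). The median changes were 5.72 in L929, 1.92 in NIH3T3 and 1.89 in RAW264.7.

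**Figure D3:**
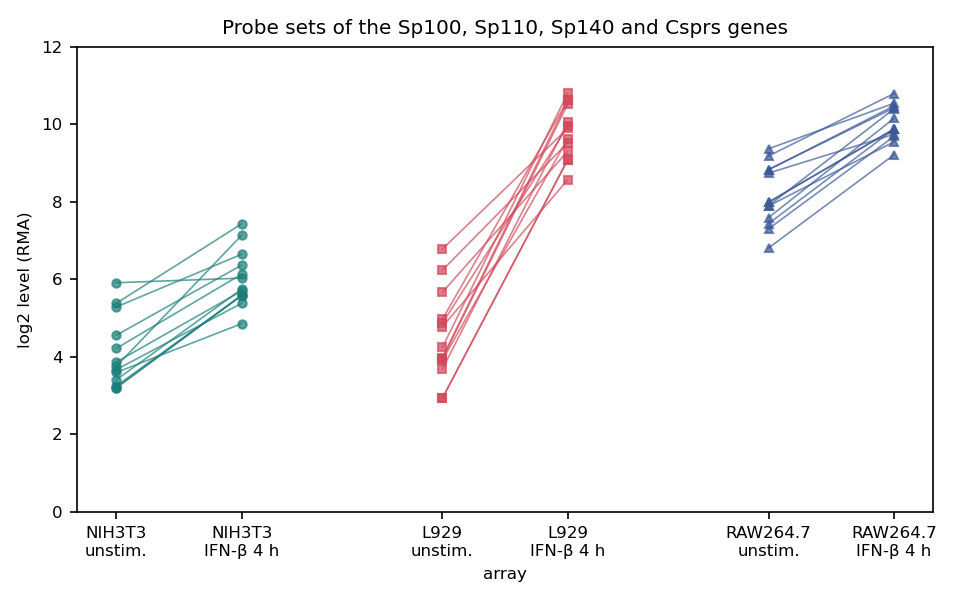
Log2 RMA level (vertical axis) of the 13 probe sets of the Sp100, Sp110, Sp140 and Csprs genes on the 6 arrays, with a line for each probe set within a cell line. L929 moves from a median of 4.24 to 9.90, RAW264.7 begins at 7.99 and reaches 9.88, and NIH3T3 moves from 3.75 to 5.75.

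Csprs shared a 5-gene combination with Gm7592, LOC100041903, Gm2666 and Gm7609, measured by 4 probe sets. The one with the largest change in L929 had 3.24 to 5.58 in NIH3T3, 3.98 to 10.62 in L929 and 7.44 to 9.88 in RAW264.7. Its L929 change of 6.64 was 99.7-fold, its NIH3T3 change 2.34 (5.06-fold) and its RAW264.7 change 2.44 (5.43-fold). The other three gave L929 changes of 6.57, 6.38 and 6.58, RAW264.7 changes of 2.56, 2.41 and 2.39 and NIH3T3 changes of 2.34, 1.71 and 1.84. Their levels were 3.40 to 5.75, 3.67 to 5.38 and 3.86 to 5.70 in NIH3T3, then 4.24 to 10.81, 3.68 to 10.06 and 3.95 to 10.53 in L929, and 7.59 to 10.16, 6.81 to 9.22 and 7.30 to 9.69 in RAW264.7. The NIH3T3 calls of the probe sets at 1.71 and 1.84 were lost when centred, at 1.44 and 1.56. The 4 probe sets gave one order of levels on the unstimulated arrays, with RAW264.7 highest, and on the stimulated arrays, with L929 highest.

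Sp110 was named with Gm15753, a pseudogene on chromosome 5 while Sp110 lies on chromosome 1, by 2 probe sets with identical values. These were 3.20 to 5.59 in NIH3T3, 2.93 to 9.09 in L929 and 7.99 to 9.88 in RAW264.7. The L929 array was the lowest unstimulated and stood above NIH3T3 with IFN-β, with a change of 6.16 (71.6-fold) beside 2.39 (5.22-fold) and 1.89 (3.71-fold). With LOC102638047 added, a probe set gave 4.22 to 6.13, 3.91 to 9.63 and 8.83 to 10.48, with changes of 1.92, 5.72 and 1.65. The 6-gene combination with Sp110 gave 4.56 to 6.37, 4.87 to 9.95 and 9.19 to 10.80, with changes of 1.81, 5.09 and 1.61, and its NIH3T3 change was 1.53 when centred. A 5-gene combination with Sp110 passed in L929 only, at 5.91 to 6.03, 5.67 to 9.31 and 9.37 to 10.55. Its NIH3T3 change of 0.12 was the smallest of the 13 in that line and turned negative, at -0.16, with the arrays centred on their medians, so the probe sets that name Sp110 did not give 1 answer for NIH3T3.

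Sp100 itself was named together with Gm7592, LOC101055663, LOC671917 and Gm7609, with levels of 3.75 to 7.14 in NIH3T3, 4.96 to 10.63 in L929 and 7.90 to 10.40 in RAW264.7. Its NIH3T3 change of 3.39 (10.5-fold) was the largest of the 13 probe sets in that line, beside 5.67 (50.8-fold) in L929 and 2.50 (5.65-fold) in RAW264.7. The probe set of Sp100 alone gave 4.07, 6.37 and 2.39, in the same order of lines. Sp140 and A530032D15Rik were named with LOC101055672 and C130026I21Rik by a probe set at 5.38 to 7.43, 6.78 to 9.90 and 8.84 to 10.43, with changes of 2.05, 3.12 and 1.59. The probe set of Sp140 and A530032D15Rik alone gave changes of 1.36, 3.29 and 1.66 and missed 3-fold in NIH3T3. That of Sp140 by itself gave 1.97, 3.31 and 1.62. The 9-gene combination, which holds both Sp140 and Sp110, had 3.59 to 4.85, 4.78 to 8.58 and 8.74 to 9.75, and passed in L929 only with changes of 1.26, 3.80 and 1.01. A530032D15Rik had 2 probe sets of its own, with changes of -0.14, 1.54 and 0.42 and of 1.05, 1.83 and 0.91. The 9 single-gene probe sets of this family had medians of 1.97, 6.37 and 1.49, with 7, 8 and 3 past 3-fold, the largest L929 change being that of A530040E14Rik (1.99, 6.77 and 1.47).

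Ifi211 and Ifi204, of the HIN-200 family of nucleic acid sensors that includes the DNA sensor Aim2, had 8.53 to 10.42 in NIH3T3, 8.95 to 11.18 in L929 and 6.84 to 10.29 in RAW264.7. This was the single probe set of the 24 with its largest change in RAW264.7, at 3.45 (10.9-fold) beside 1.89 (3.70-fold) and 2.23 (4.69-fold). The unstimulated RAW264.7 array was the lowest of the 3, the reverse of the Sp100 family. Single-gene probe sets of the HIN-200 family passed for 4, 7 and 6 of 10, and did not share one order of lines. Ifi205 gave 5.34, 6.67 and 4.37, Ifi202b gave 2.33, 2.47 and 5.39, and Ifi209 gave 0.56, 4.81 and 4.56.

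Trim5, Trim12c and Trim12a belong to the tripartite motif family, in which Trim5 proteins act on incoming retroviral capsids. The 3-gene probe set had 4.17 to 5.86 in NIH3T3, 3.95 to 6.63 in L929 and 5.11 to 7.16 in RAW264.7, and that of Trim5 and Trim12c had 4.66 to 6.35, 4.15 to 7.03 and 5.48 to 7.49. RAW264.7 was highest before and after IFN-β in both. The changes of 1.69 and 1.68 in NIH3T3 passed 3-fold narrowly and were under it when the arrays were centred on their medians. Those in L929 were 2.68 and 2.88 and those in RAW264.7 2.05 and 2.01. Of the partners alone, Trim12c gave 1.47, 2.83 and 3.27 and Trim12a gave 0.48, 0.08 and 0.21. The Trim12a probe set lay between 2.54 and 3.21 on all 6 arrays, far under the array medians, so its share in the 3-gene value cannot be read from it. Among 59 single-gene Trim probe sets 4, 6 and 6 passed, led by Trim30d (2.10, 5.64 and 3.48), Trim30a (4.70, 5.17 and 2.41) and Trim21 (3.68, 4.38 and 2.06).

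Isg15 encodes a ubiquitin-like protein that is attached to other proteins in interferon-treated cells, and its array partner Gm9706 is a pseudogene on chromosome 17 while Isg15 lies on chromosome 4. The levels were 4.21 to 7.73 in NIH3T3, 4.11 to 8.42 in L929 and 4.37 to 7.34 in RAW264.7. The unstimulated arrays lay close together and every stimulated array was higher by at least 2.96. The folds were 11.5, 19.8 and 7.81, and no probe set named Isg15 alone. Genes that act with it and had probe sets of their own included Usp18, which removes the modifier (6.27, 7.42 and 2.98), the ligase Herc6 (3.77, 4.80 and 3.11) and the conjugating enzyme Ube2l6 (2.73, 3.26 and 2.67). Of the 14 single-gene probe sets in this list 3, 4 and 3 passed. The window before Isg15 is shown for its 3 overlapping ISRE matches, which form a single run of capitals.
Isg15 (chr4:156200819-156201068, minus strand): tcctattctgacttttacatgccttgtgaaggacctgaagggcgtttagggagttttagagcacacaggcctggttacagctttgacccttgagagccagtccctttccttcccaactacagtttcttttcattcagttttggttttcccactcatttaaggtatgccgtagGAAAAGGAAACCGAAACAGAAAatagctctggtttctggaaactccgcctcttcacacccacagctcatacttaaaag

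Apol9a and Apol9b, apolipoprotein L genes, shared 2 probe sets that passed in all lines. One had 4.95 to 7.95 in NIH3T3, 5.81 to 9.66 in L929 and 5.27 to 7.85 in RAW264.7, and the other 4.86 to 7.22, 5.59 to 9.44 and 4.90 to 7.67. L929 was highest in both conditions, and the changes were 3.00, 3.85 and 2.58 in the first and 2.36, 3.86 and 2.76 in the second. Of the 7 single-gene probe sets of other apolipoprotein L genes, 0, 3 and 0 passed, with medians of 0.69, 0.85 and 0.25, and the 3 were Apol7a (0.69, 2.90 and 0.09), Apol6 (1.06, 2.39 and 0.36) and Apol10b (0.95, 2.26 and 1.34). The upstream windows of Apol9a and Apol9b were identical over 228 aligned positions.

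Ly6c1 and Ly6c2 encode glycolipid-anchored surface proteins, of which Ly6c2 marks inflammatory monocytes. They shared 2 probe sets that passed in L929 and RAW264.7, with the largest change in RAW264.7. The first had 8.85 to 9.90 in NIH3T3, 10.28 to 12.01 in L929 and 3.87 to 6.36 in RAW264.7, and the second 7.29 to 8.18, 8.79 to 10.61 and 2.97 to 5.60. The macrophage line was the lowest before and after IFN-β, and its stimulated level was below the unstimulated level of both fibroblast lines. Its changes were 2.49 and 2.63, beside 1.73 and 1.83 in L929 and 1.06 and 0.90 in NIH3T3.

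Oas1a and Oas1g, adjacent genes of the oligoadenylate synthetases that sense double-stranded RNA and activate RNase L, shared a probe set at 4.86 to 5.94 in NIH3T3, 5.82 to 9.60 in L929 and 8.44 to 9.85 in RAW264.7. RAW264.7 was higher unstimulated than NIH3T3 was with IFN-β, and the folds were 2.10, 13.7 and 2.66, so that L929 alone passed. The probe set of Oas1a alone gave 0.36, 3.83 and 1.96 and passed in RAW264.7 too. Among the 11 single-gene probe sets of the family 3, 7 and 4 passed, and Oasl2 (4.97, 5.47 and 4.26) and Oas1b (3.43, 4.54 and 1.51) had the largest changes. The windows before the pair are shown because both end in overlapping ISRE matches next to the start, while only Oas1a has a GAS match.
Oas1a (chr5:120907526-120907775, minus strand): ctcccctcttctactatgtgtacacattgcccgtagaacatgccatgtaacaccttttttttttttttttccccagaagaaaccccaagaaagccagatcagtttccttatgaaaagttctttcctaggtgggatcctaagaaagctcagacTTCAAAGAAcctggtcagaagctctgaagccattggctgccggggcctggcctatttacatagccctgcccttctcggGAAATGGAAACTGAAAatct
Oas1g (chr5:120887614-120887863, minus strand): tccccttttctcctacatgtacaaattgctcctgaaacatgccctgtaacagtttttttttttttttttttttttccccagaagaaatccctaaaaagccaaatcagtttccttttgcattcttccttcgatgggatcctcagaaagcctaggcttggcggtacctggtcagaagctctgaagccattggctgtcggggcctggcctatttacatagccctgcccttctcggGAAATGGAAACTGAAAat

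The first ISRE match began 20 bases before the start in Oas1a and 18 in Oas1g, and the windows were identical at 212 of 253 aligned positions (83.8%). Across the genes, 42 of the 78 were in the RefSeq promoter table, with windows from 250 bases before to 50 after the start. The ISRE core was in a window of 18 of the 42 (42.9%), against 1079 of all 27025 genes of the table (3.99%). GAS was in 6 (14.3%) against 2582 (9.55%). Among genes of the probe sets past 3-fold in all lines 14 of 23 had the ISRE core, and among the others 4 of 19. Genes without an ISRE match in this window included Sp100, Sp110, Sp140, Ifi47, Psme2 and Pnp. Such a gap says that these letters are not in this window. The genes of a pair share sequence, so the windows are not independent of one another.

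**Figure D4:**
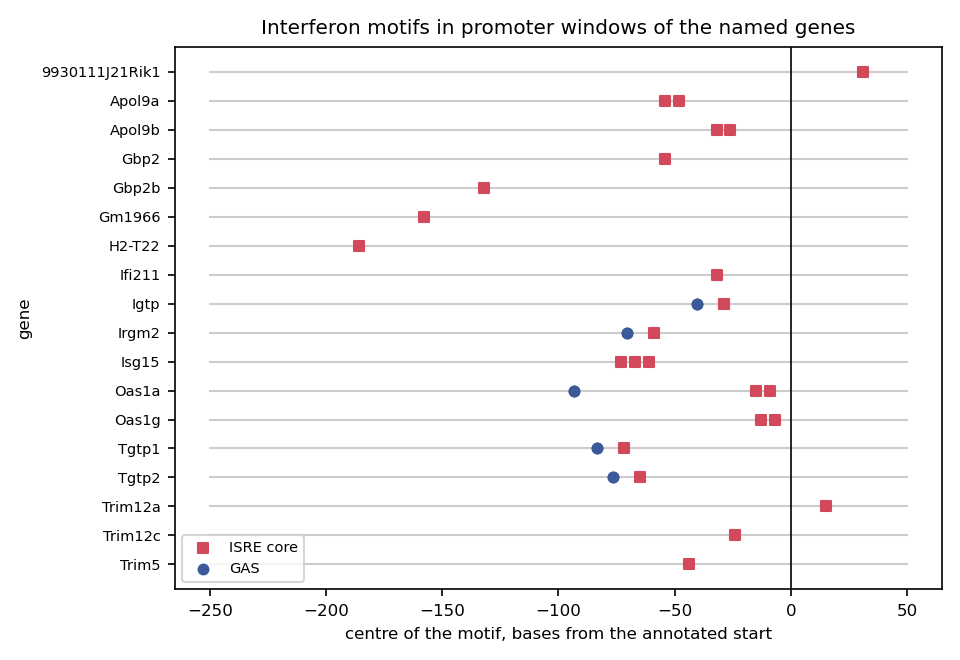
Position of ISRE core matches (squares) and GAS matches (circles) in the promoter windows of the 18 genes with an ISRE match, in bases from the annotated start (vertical line), with the window in grey. In Igtp, Irgm2, Tgtp1 and Tgtp2 a GAS match stands directly before the ISRE match, and in 2 genes, 9930111J21Rik1 and Trim12a, the ISRE match lies after the start.

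The 2 probe sets of antigen presentation genes passed in L929 only. H2-T9, H2-T22 and H2-T10 are nonclassical class I genes, of which H2-T22 and H2-T10 are ligands of gamma-delta T cells. Their probe set had 6.53 to 8.09 in NIH3T3, 8.26 to 10.38 in L929 and 7.67 to 8.87 in RAW264.7, and its NIH3T3 change of 1.57 lay just under 3-fold, beside 2.12 in L929 and 1.20 in RAW264.7. It was 1 of 9 several-gene probe sets of the class I list, and of the 23 single-gene ones 2, 3 and 1 passed, including H2-T24 (2.15, 3.64 and 1.74) and H2-Q4 (1.84, 1.86 and 1.25). H2-T10 alone gave 1.31, 1.99 and 0.31. Psme2 encodes a subunit of the proteasome activator PA28, and Psme2b is its copy on chromosome 11 while Psme2 is on 14. Their shared probe set had 6.94 to 8.26 in NIH3T3, 6.08 to 9.31 in L929 and 8.39 to 9.82 in RAW264.7. All arrays were higher with IFN-β, by 1.32, 3.23 (9.39-fold) and 1.43, and the probe set of Psme2 alone gave 1.08, 1.73 and 0.76. The L929 change of the shared probe set was thus larger than that of Psme2 by itself.

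Pnp and Pnp2, adjacent genes of purine nucleoside phosphorylase, had 9.12 to 10.26 in NIH3T3, 9.37 to 11.34 in L929 and 10.16 to 11.70 in RAW264.7. The changes were 1.14, 1.97 and 1.55, so RAW264.7 missed 3-fold by a small margin, and the probe set of Pnp alone passed in both L929 and RAW264.7 at 1.09, 2.30 and 1.69. The serpins Serpinb9g, Serpinb9d, Serpinb9e and Serpinb9f, relatives of the granzyme B inhibitor Serpinb9, shared a probe set with 2.91 to 3.44 in NIH3T3, 5.32 to 7.05 in L929 and 2.88 to 3.16 in RAW264.7. L929 stood apart in both conditions. Its change was 1.74 beside 0.54 and 0.28. Serpinb9e alone gave -0.19, 1.82 and -0.07 and Serpinb9d, at low levels, 0.34, 0.23 and -0.74, while Serpinb9 gave 0.50, 2.56 and 0.89.

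A further 4 probe sets that passed in L929 alone came from low unstimulated levels there, under the array's median of 4.77, and their changes are given without an order among genes. Low starts in L929 were not particular to these 4. Probe sets with far larger folds also began under 4.77, such as Tgtp2 and Tgtp1 (3.43), Irgm2 and Igtp (3.20), Sp110 with Gm15753 (2.93) and Gbp2 and Gbp2b (3.56). Gm4027 and BB287469 had 1.83 to 1.86 in NIH3T3, 1.48 to 4.02 in L929 and 1.62 to 1.46 in RAW264.7, with changes of 0.03, 2.53 and -0.17. A combination of Gm17026, Gm10375, Gm10377 and 1700001F09Rik on chromosome 14, with BC061237 in 1 of 2 probe sets, gave 2.62 and 2.80 in L929 beside 0.48 and 0.11 in NIH3T3 and 0.20 and 0.49 in RAW264.7. Another probe set of these genes lay just outside the rule at 1.58. Gtf3c2 and Mpv17, adjacent genes for a subunit of transcription factor TFIIIC and a mitochondrial inner membrane protein, gave 1.25, 1.82 and 0.82, and the probe set of Mpv17 alone gave -0.32, 0.10 and -0.01.

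The remaining 16 probe sets named genes of small RNAs and passed in L929 only, with a negative change in RAW264.7 for all of them. They held 7 distinct sets of values. The 127 small nuclear and nucleolar RNA probe sets of the array had a median RAW264.7 change of -0.12, with 44 above 0. A negative change there was thus not particular to the 16. U1 and U2 are the small nuclear RNAs that recognise the start of an intron and its branch point during splicing. They are not polyadenylated. The U1 genes Rnu1b6, Rnu1b2 and Rnu1b1 were named by 9 probe sets with 3 distinct sets of values, all 9 of the array's U1 probe sets. In 5 of them the levels were 6.85 to 6.24 in NIH3T3, 7.20 to 9.21 in L929 and 8.76 to 8.37 in RAW264.7. In 3 they were 7.29 to 7.66, 7.54 to 9.34 and 8.86 to 8.41, and in the last 6.99 to 7.33, 7.19 to 8.89 and 8.46 to 7.94. Unstimulated RAW264.7 was the highest before stimulation and L929 after it. In L929 they were higher by 4.01-fold, 3.48-fold and 3.26-fold, the RAW264.7 log2 changes were -0.40, -0.45 and -0.52, and those of NIH3T3 -0.61, 0.37 and 0.34.

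The U2 gene Rnu2-10 shared its probe sets with Rdm1, a gene of DNA repair, and 6 of the array's 7 passed in L929. In 4 of the 6 the levels were 9.78 to 10.09 in NIH3T3, 8.34 to 9.98 in L929 and 10.11 to 9.67 in RAW264.7, with changes of 0.31, 1.63 and -0.43. The others had 9.47 to 9.86, 7.97 to 9.67 and 9.79 to 9.38, and 9.27 to 9.83, 7.98 to 9.66 and 9.67 to 9.24, with L929 changes of 1.70 and 1.68. L929 was the lowest line unstimulated and lay between the others with IFN-β. The probe set of Rdm1 alone gave 0.44, 0.00 and 0.16. The U2 probe sets also marked the edge of the rule, where the 4 with the same values were the lowest inside at 1.63 and a U2 probe set at 1.56 and one of H2-T-ps and H2-T23 at 1.56 lay just outside.

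Snord32a, a small nucleolar RNA encoded in an intron of the ribosomal protein gene Rpl13a, shared a probe set with that gene. This probe set had 9.98 to 10.01 in NIH3T3, 7.63 to 9.65 in L929 and 8.65 to 7.78 in RAW264.7. Its changes were 0.03, 2.01 and -0.87, and the NIH3T3 change was -0.24 with the arrays centred on their medians. Snord34, from the same host, also shared a probe set with Rpl13a, which gave 0.60, 1.20 and -0.96. The probe set of Snord33 alone gave 0.30, 0.86 and -0.48. Of all 127 small nuclear and nucleolar RNA probe sets, 16 passed in L929. The 127 had a median L929 change of 0.08, with 70 above 0. Over the other 111 the median was -0.02, with 54 above 0. Their maximum of 1.56 is under 3-fold because those past it were set apart. Without the Snord116 probe sets, 54 of 87 of these were above 0 and the median was 0.09. With identical values among the 111 counted once, 50 of 86 were above 0 and the median was 0.08. Among single-gene small RNA probe sets, Snord15b gave 0.81, 1.31 and -0.44, Rnu3a 1.29, 0.71 and -0.39, and Mir29a 1.23, 0.19 and -0.29. These had the largest changes in any line, and Snord15b had 7.83 to 9.15 in L929. Other spliceosomal and processing RNAs gave smaller L929 changes than U1 and U2, with 0.64 for Rnu12 and 0.87 for the U3 gene probe sets of Rnu3b. Those of Rnu5g (-0.02), Rnu6 (0.45) and Rnu7 (1.05) were at low levels, between 1.33 and 3.67 in L929. The part of RNA extraction and of labelling in these values was not tested.

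**Figure D5:**
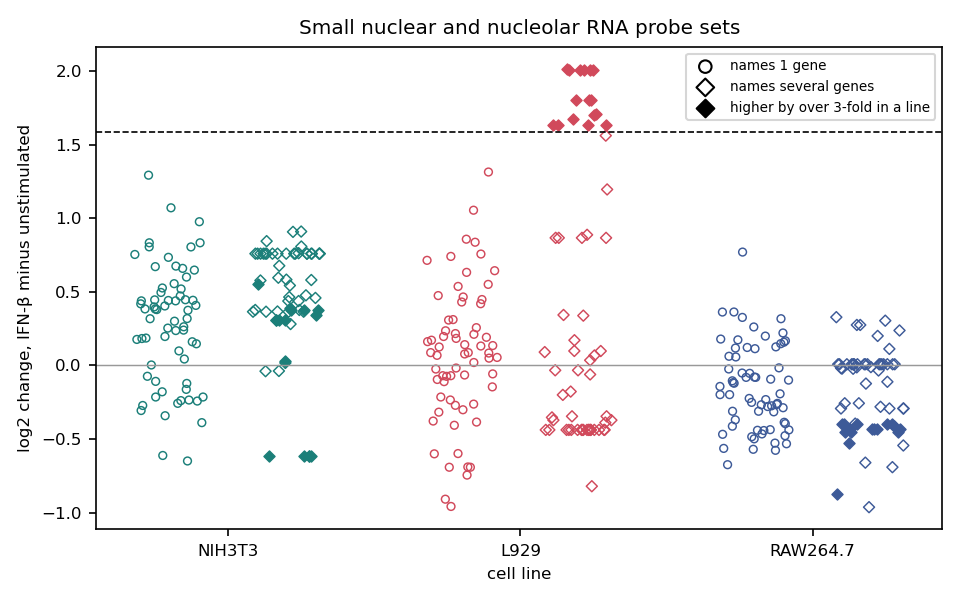
Log2 change after IFN-β (vertical axis) of 127 small nuclear and nucleolar RNA probe sets in each line, with circles for those naming 1 gene, diamonds for several genes, and filled diamonds for the 16 past 3-fold in a line. The filled diamonds lie between 1.63 and 2.01 in L929 and below 0 in RAW264.7. The open symbols, which by the rule are all under 3-fold, have medians of -0.02 in L929 and -0.08 in RAW264.7.

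Of the 78 genes, 20 were also measured alone, by 21 probe sets. In 14 of the 21 the change passed 3-fold in at least 1 line, and in 7 it passed in none. The 7 were those of Gbp8, Trim12a, Serpinb9d, Rdm1, Mpv17, BC061237 and 1 of the 2 for A530032D15Rik. BC061237 gave 0.56, -0.08 and 0.70. The probe sets of Trim12a, Serpinb9d and BC061237 lay between 2.05 and 3.41 on every array, far under the array medians, where a change of the gene may not be measurable. Those of Mpv17 and Rdm1 were at 5.06 or higher, and that of Gbp8 between 3.85 and 5.57. These are other probes in the same 6 RNA samples, and they measure the same contrast, so they are no independent test of it.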

How the data were processed

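Each of the 6 arrays has 1 deposited column of log2 values, produced by the authors with RMA, which corrects background, normalizes between arrays and summarises the probes of a set, per the submitters' processing notes. No RMA version is named in the sources used here. Base 2 follows from the range of the values. None was filtered or rescaled.

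Genes come from the platform's annotation. The change in a line is the difference of 2 arrays, counted at 3-fold. No test is given, since these changes chose the probe sets. The members and the gene lists were chosen with earlier results of these data known. Levels on all arrays are given for probe sets past 3-fold in all lines, the 5 largest per line, the largest per family, and those of 1 line with an unstimulated level of at least the array median. Levels of the Gvin1, Ly6c and Gm4027 probe sets were added after they were seen. Relatives are the 3 single-gene probe sets with the largest change. Promoters and gene order are RefSeq GRCm38.p6. Windows were aligned locally with Biopython 1.88. Python 3.11.15, numpy 2.4.6, pandas 2.3.3 and matplotlib 3.10.9 were used, and the counting was tested on simulated data. Protein sequences were not used here.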

Additional observations from a re-analysis of the deposited data

Results flagged for a closer look

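In 8 distinct sets of values the L929 array pair and the RAW264.7 array pair moved in opposite directions, higher with IFN-β in L929 and lower in RAW264.7. All 57 probe sets passed 3-fold in L929, so only the RAW264.7 direction could differ among them. Opposite directions were not counted over all probe sets, whose median RAW264.7 change was -0.02. Of the 127 small nuclear and nucleolar RNA probe sets, 44 were higher in RAW264.7, and nothing is read from the 8. The L929 change exceeded the RAW264.7 change by 2.23, 2.25 and 2.40 on the log2 scale for the U1 genes Rnu1b6, Rnu1b2 and Rnu1b1. For the U2 probe sets of Rdm1 and Rnu2-10 it did so by 2.11, 2.07 and 2.11. For Snord32a and Rpl13a the gap was 2.88, and for Gm4027 and BB287469 it was 2.70. With 1 pair of arrays a line the difference between the lines was not tested. The RAW264.7 change of Gm4027 and BB287469 was -0.17, at levels of 1.62 and 1.46, far under the medians of those arrays.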

How the results depend on the processing

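Of the summary values recomputed under other settings, 43 stayed within the limits set (1.5 times for counts) and 9 moved further. The 57 probe sets became 84 at 2-fold, 37 at 5-fold, 30 without the L929 arrays and 35 with the same gene combination counted once, the last chosen after seeing the data. The 24 of all 3 lines became 12 at 5-fold, the NIH3T3 count 39 at 2-fold and 16 at 5-fold, the L929 count 75 and 34, and the RAW264.7 count 39 and 20. The median change in NIH3T3, 1.25 as deposited, was 0.98 with arrays centred on their medians and 1.10 after quantile normalization. Centring kept 19 of the 24 in all 3 lines and quantile normalization 20. Those lost were both Trim5 probe sets, 2 of the 4 Csprs probe sets and, with centring, the 6-gene Sp110 probe set. Quantile normalization added 2 probe sets in L929, and Pnp2 and Pnp then passed in RAW264.7. A GAS match in place of the ISRE core gave 14.3% of the named genes that were in the promoter table. Counting identical values once gave 47, and leaving out small nuclear and nucleolar RNAs 41, both chosen after seeing the data. The 57 were unchanged in number without the NIH3T3 or the RAW264.7 arrays, as they had to be, since all 57 passed in L929. By the same nesting the 24 had to stay 24 without the L929 or the RAW264.7 arrays. These fixed outcomes are among the 43 and say nothing about stability. Changes of single probe sets were recomputed under centring and quantile normalization for those that the rule chose for levels, not for all 57. These were 141 changes in each setting, with identical values and changes never past 3-fold among them. Of the recomputed values, 272 kept their side of 3-fold and 10 crossed it. Those that crossed were NIH3T3 changes, except that of Pnp2 and Pnp in RAW264.7. Among the 141, no change past 3-fold turned negative, and 2 small NIH3T3 changes changed sign. They were those of the 5-gene Sp110 probe set (0.12 as deposited, -0.16 centred, -0.05 after quantile normalization) and of Snord32a and Rpl13a (0.03 as deposited, -0.24 centred). No paired analysis was possible because the changes of every line chose the probe sets, so a fit with the line as a block would test the values that chose them. Limits are the choice on the same values, the single array per group, the shift of the NIH3T3 arrays, and that a shared probe set does not say which of its genes gave the signal.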
